A study of Mus musculus with 6 samples.

Results

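Hydroxysteroid dehydrogenases are enzymes that move a hydrogen between a hydroxyl and a keto group on a steroid, and several of them act on fatty acyl or retinoid substrates instead. The 10 members described here, *Hsd3b2*, *Hsd3b3*, *Hsd3b5*, *Hsd11b1*, *Hsd17b2*, *Hsd17b6*, *Hsd17b7*, *Hsd17b11*, *Hsd17b12* and *Hsd17b13*, were taken by gene symbol from a table of 24421 genes, and all 10 were found. The libraries were made from hepatic mRNA of 3 wild-type (WT) and 3 heterozygous PAI-1 deficient (*Pai-1*+/−) mice. Both groups were male, on the C57BL/6 background (C57BL/6J in the paper of the study), were 21 weeks old in the labels, and were fed standard chow ad lib. The *Pai-1*+/− animals carry 1 null allele in the germ line, so the deficiency is not restricted to the liver. The WT animals are described as littermates. PAI-1 itself is the main inhibitor of plasminogen activation.

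The study was designed to compare the genotypes. Counts per animal were deposited in 6 columns headed by numbers that match no sample label, so no column could be tied to a genotype, and no value per mouse or per genotype was used. What follows therefore describes the levels of the members in the livers of both genotypes together, from a value the authors averaged across the libraries after scaling each library's counts by its size factor, termed the mean normalized count here. This mean has no standard deviation, and no test was run. Because whole liver was sampled, a low level in many cells and a high level in few cells cannot be told apart.

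In the liver these enzymes have separate duties. The 3-beta group converts steroid precursors to active hormones, or reduces 3-keto steroids, and in rodents includes members that are expressed in liver rather than in steroid-producing glands. *Hsd11b1* regenerates active glucocorticoid inside the cell, and *Hsd17b2* inactivates androgens and estrogens. *Hsd17b7* belongs to cholesterol synthesis, *Hsd17b12* to the lengthening of fatty acids, and *Hsd17b11* and *Hsd17b13* encode proteins of the lipid droplet surface.

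Several genes of the 3-beta cluster are close copies, and the window below is shown because it has the length of 1 read of the study (75 bases). In the GENCODE M21 annotation of GRCm38, the build also named mm10, *Hsd3b2*, *Hsd3b3* and *Hsd3b5* each have a coding sequence of 1119 bases and lie on the minus strand of chromosome 3. The window covers coding bases 576 to 650 in the last exon and is the one where *Hsd3b2* and *Hsd3b5* together differ most from *Hsd3b3*. Capitals mark bases that differ from *Hsd3b3*, and each sequence runs 5′ to 3′ along the coding strand. It lies at chr3:98742356-98742430 in *Hsd3b3*, chr3:98711978-98712052 in *Hsd3b2*, chr3:98619479-98619553 in *Hsd3b5* and chr3:98806332-98806406 in the neighbouring *Hsd3b6*.
Hsd3b3: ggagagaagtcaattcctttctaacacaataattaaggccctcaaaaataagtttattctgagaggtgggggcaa
Hsd3b2: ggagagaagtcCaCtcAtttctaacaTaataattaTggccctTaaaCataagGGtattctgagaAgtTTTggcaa
Hsd3b5: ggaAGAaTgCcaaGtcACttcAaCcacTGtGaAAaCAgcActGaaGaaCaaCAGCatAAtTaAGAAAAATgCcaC
Hsd3b6: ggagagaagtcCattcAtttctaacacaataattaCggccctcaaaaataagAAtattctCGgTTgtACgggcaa
Here *Hsd3b2* differs from *Hsd3b3* at 13 bases, *Hsd3b6* at 11 and *Hsd3b5* at 38.

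Over the whole coding sequence, *Hsd3b2* and *Hsd3b3* were identical at 95.1% of aligned bases, and *Hsd3b6* was 94.4% and 94.5% identical to them. *Hsd3b5* stood apart from both, with 80.3% identity to *Hsd3b2* and 80.0% to *Hsd3b3*, and was closest to *Hsd3b4*, at 95.2%. The close copies in the cluster were thus *Hsd3b2*, *Hsd3b3* and *Hsd3b6* on the one hand and *Hsd3b4* and *Hsd3b5* on the other. *Hsd3b7*, an enzyme of bile acid synthesis outside the cluster, was only 52.9% identical to *Hsd3b3*.

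**Figure D1:**
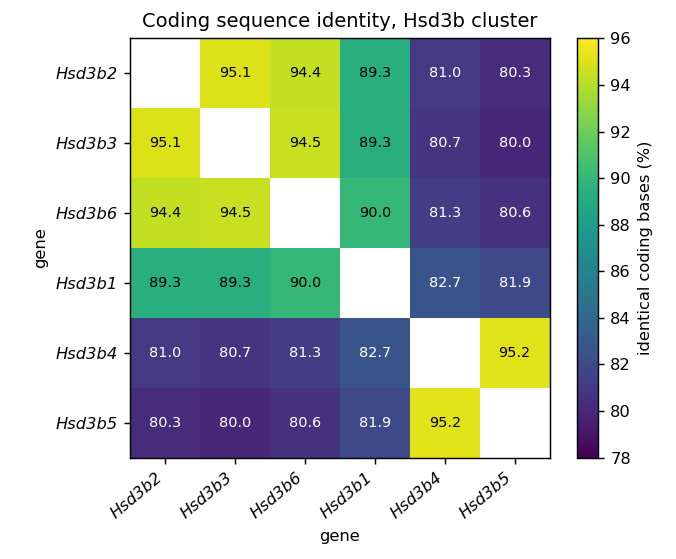
Identity of the coding sequences of 6 genes of the chromosome 3 cluster, as the percent of aligned bases that are the same. Each cell is 1 pair of genes on the x and y axes. *Hsd3b2*, *Hsd3b3* and *Hsd3b6* share 94.4% to 95.1% of bases, and *Hsd3b4* and *Hsd3b5* share 95.2%.

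How much of each member could be confused with another gene was counted as the share of its distinct 75-base transcript windows that also occur, on either strand, in an annotated transcript of another gene. The share was 15.8% for *Hsd3b2*, 11.7% for *Hsd3b5*, 10.4% for *Hsd17b6* and 6.53% for *Hsd3b3*. The 6419 windows of *Hsd3b3* come from all its transcripts, including a processed transcript of 4766 bases. Its protein coding transcripts have a median of 1443 bases, and 290 of its windows occur in *Hsd3b2*. It was 0 for the other 6 members, *Hsd11b1*, *Hsd17b2*, *Hsd17b7*, *Hsd17b11*, *Hsd17b12* and *Hsd17b13*. Of the 3695 windows of *Hsd3b2*, 582 are shared, with 290 occurring in *Hsd3b3* and 120 in *Hsd3b6*. Shared windows of *Hsd3b2* also occur in many genes outside the family, such as 70 in *D10Wsu102e* and 57 in *Wdr59*. For *Hsd3b5*, all 173 shared windows occur in *Hsd3b4*. How the authors treated reads that fit several genes is not given in the sources used here.

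**Figure D2:**
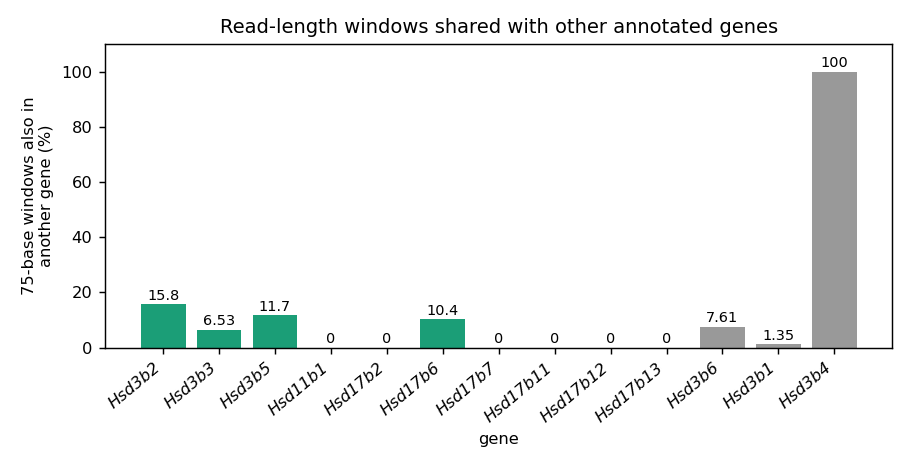
Percent of the distinct 75-base windows of each gene (x axis) that also occur in an annotated transcript of another gene (y axis). Green bars are members and gray bars are 3 neighbours of the chromosome 3 cluster. *Hsd3b2* has the highest share among members (15.8%), 6 members have 0, and *Hsd3b4* has no window of its own.

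*Hsd17b6* is the one 17-beta member that shares read-length windows with other genes. It lies at chr10:127990936-128007611 on the minus strand, in the same region as a row of retinol dehydrogenase genes. Its coding sequence was 72.5% identical to that of *Rdh1*. Of its 1674 windows, 174 occur in *Rdh1*, 174 in *Rdh16f1*, 77 in *Rdh19*, 65 in *Rdh18-ps*, 45 in *Rdh9*, 30 in *Rdh16* and 29 in *Rdh7*. The window below, coding bases 58 to 132 of both genes, is shown because it is identical in *Hsd17b6* (chr10:127997879-127997953, minus strand) and *Rdh1* (chr10:127759995-127760069, plus strand), and it has 0 capitals for that reason.
Hsd17b6: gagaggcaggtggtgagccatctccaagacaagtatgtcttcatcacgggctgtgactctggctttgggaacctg
Rdh1: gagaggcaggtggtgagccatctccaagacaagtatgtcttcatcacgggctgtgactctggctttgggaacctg

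*Hsd17b13* and *Hsd17b11*, the lipid droplet pair, are neighbours on chromosome 5, with 64.5% identity over their coding sequences of 912 and 894 bases. Their most similar read-length window is shown to set this pair beside the windows above. It covers coding bases 136 to 210 of each gene, at chr5:103977106-103977180 and chr5:104021530-104021604 on the minus strand. Capitals mark bases that differ from *Hsd17b13*.
Hsd17b13: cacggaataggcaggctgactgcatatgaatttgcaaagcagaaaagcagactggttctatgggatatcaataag
Hsd17b11: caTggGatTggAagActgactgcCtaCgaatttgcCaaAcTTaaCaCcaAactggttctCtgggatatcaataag
The windows differ at 15 bases, and 0 windows of either gene occur in another annotated gene.

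The members differed widely in level. *Hsd11b1* had the highest mean normalized count (16701) and *Hsd3b5* the lowest (531), a ratio of 31.4. All 10 had a mean normalized count above 10, the level used here for genes within range, which 12971 genes passed, and all 10 lay above the median of those genes, 440.4. The median member lay at percentile 90.5 of the genes within range, and 5 of 10 members were in the top 10%. The 10 members together made up 0.200% of all mean normalized counts in the table.

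**Figure D3:**
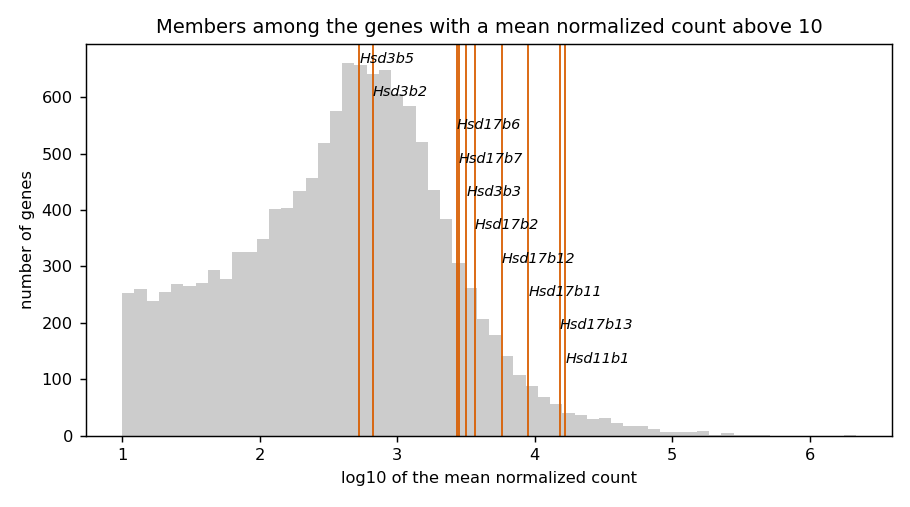
Number of genes (y axis) by the log10 of the mean normalized count over all libraries (x axis), for the 12971 genes above 10. Orange lines mark the 10 members. *Hsd3b5* and *Hsd3b2* lie near the peak of the distribution and the other 8 in its upper tail.

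A long transcript gives more reads than a short one, so levels were compared between members per kilobase, by dividing the mean normalized count by the length of the longest annotated transcript. On this scale *Hsd17b13* (8919 per kilobase) and *Hsd11b1* (8444 per kilobase) led, followed by *Hsd17b11* (4004), *Hsd17b12* (3019), *Hsd17b2* (2776), *Hsd17b6* (1773), *Hsd3b3* (666.9), *Hsd17b7* (608.0), *Hsd3b5* (343.0) and *Hsd3b2* (179.6). The median of the genes within range was 128.9 per kilobase. *Hsd3b5* and *Hsd3b2*, at the end of the order, stood above that median, and 6 of 10 members were in the top 10% of genes. Because the counts per animal were not used, no spread between mice is given and neighbours in this order were not tested. They differed by as little as 1.06-fold (*Hsd17b13* over *Hsd11b1*), 1.09-fold (*Hsd17b12* over *Hsd17b2*) and 1.10-fold (*Hsd3b3* over *Hsd17b7*). The widest gap between neighbours was 2.66-fold, from *Hsd17b6* to *Hsd3b3*, but with the median coding transcript these stood at 2650 and 2203 per kilobase, and in counts *Hsd3b3* was the higher, at 3178 against 2699.

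The length used changed some of these values. The longest annotated transcript of *Hsd3b3* is a processed transcript of 4766 bases, while its protein coding transcripts have a median of 1443 bases. With that median its level was 2203 per kilobase, 3.30 times as high. In the same way *Hsd3b2* moved to 371.2, 2.07 times as high, *Hsd11b1* to 13297, 1.57 times as high, and *Hsd17b7* to 925.7, 1.52 times as high. *Hsd11b1* then stood above *Hsd17b13* (11628 per kilobase), and *Hsd3b2* above *Hsd3b5* (343.0). The longest transcript of *Hsd11b1* is annotated as a retained intron. With the union of exons *Hsd11b1* was at 3929 per kilobase, 0.556 times *Hsd17b13*, and with the windows of no other gene at 4012. Which transcripts were counted is not given in the sources used here.

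**Figure D4:**
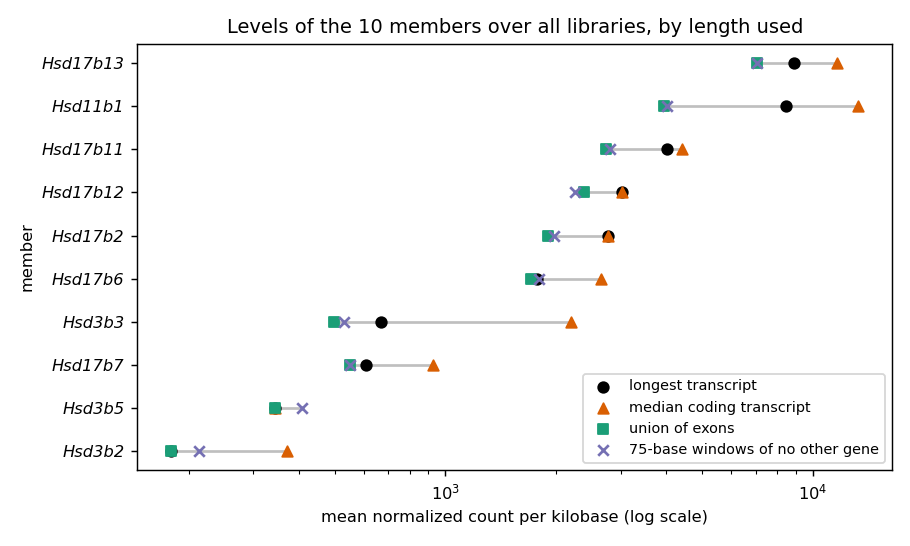
Mean normalized count per kilobase on a log scale (x axis) for each member (y axis), with the length taken as the longest transcript (circles), the median protein coding transcript (triangles), the union of exons (squares) or the number of 75-base windows found in no other gene (crosses). Gray lines join the lowest and highest value. *Hsd3b3* moves most, and *Hsd17b13* and *Hsd11b1* lead on each length.

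The 3-beta members lie within 1 cluster, in the order *Hsd3b5* (chr3:98618634-98630252), *Hsd3b2* (chr3:98709255-98724543) and *Hsd3b3* (chr3:98741523-98763127). *Hsd3b3* (ENSMUSG00000062410.14) had a mean normalized count of 3178, at percentile 89.9 of genes within range. *Hsd3b2* (ENSMUSG00000063730.13) had 663.7, at percentile 60.3, and *Hsd3b5* (ENSMUSG00000038092.6), which encodes a 3-keto steroid reductase with higher expression in male than female mouse liver, had 531.4, at percentile 54.8. *Hsd3b3* thus held 72.7% of the 3-beta counts of these members, *Hsd3b2* 15.2% and *Hsd3b5* 12.1%. *Hsd3b3* was 4.79 times as high as *Hsd3b2* on the count scale and 3.71 times per kilobase of longest transcript. The ratio was 5.93 with the median coding transcript and 2.77 with the union of exons. With the number of windows that occur in no other gene as the length, the ratio was 2.48. Against *Hsd3b5*, *Hsd3b3* was 5.98 times as high in counts, and between 1.30 and 6.42 times as high per kilobase across the lengths tried. *Hsd3b2* was 1.25 times as high as *Hsd3b5* in counts but 0.524 times per kilobase of longest transcript, so the order of these members depended on the length.

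The other *Hsd3b* genes of the cluster were near or listed at 0. *Hsd3b6*, which lies 42.4 kilobases beyond *Hsd3b3*, had a mean normalized count of 1.16, against 3178 and 663.7 in *Hsd3b3* and *Hsd3b2*, the members closest to it in sequence. Of its 1801 windows, 1664 occur in no other gene. *Hsd3b1*, the form of the adrenal and gonads, was listed at 0, and so was *Hsd3b4*. All 1563 windows of *Hsd3b4* also occur in *Gm10681*, itself listed at 0. *Zfp697*, on the opposite strand, runs through the cluster, ends within *Hsd3b3*, and shares 281 exonic bases with *Hsd3b3* and 99 with *Hsd3b2*. Its own mean normalized count was 24.4. Whether strand was used in counting is not given in the sources used here.

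**Figure D5:**
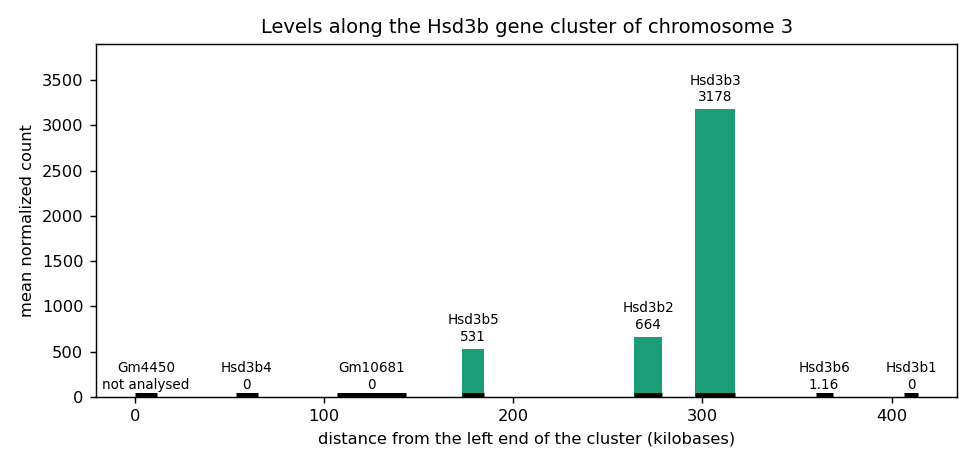
Mean normalized count over all libraries (y axis) of the *Hsd3b* genes along their cluster on chromosome 3, by distance in kilobases from the left end (x axis). Black bars are gene bodies, green columns are members and numbers are the levels. *Hsd3b3* (3178) stands above *Hsd3b2* (664) and *Hsd3b5* (531), and *Hsd3b6* is at 1.16.

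The coding sequences of *Hsd3b3* and *Hsd3b6* are near copies, whereas the stretches around their annotated start sites aligned far less well. The promoter windows of RefSeq on GRCm38.p6, 250 bases before to 50 after a start, aligned at 44.1% identity between these genes. Identity to *Hsd3b3* was 45.0% for *Hsd3b2* and 54.1% for *Hsd3b5*. On the same scoring, the coding sequences of *Hsd17b7* and *Hsd17b13* were 44.6% identical. Windows were placed by annotated start, which may lie at different points of the copies. These values therefore do not show whether the upstream stretches are related. The promoter set holds 2 windows for *Hsd3b3*, which were 98.7% identical to each other. The RefSeq gene body of *Hsd3b3* begins 1413 bases upstream of the GENCODE start, and no window at that position was used here. The 250 bases before the start of the more upstream window (chr3:98763129-98763378) and before the start of *Hsd3b6* (chr3:98814444-98814693) are shown because the levels of these close copies lie so far apart. Both read 5′ to 3′ on the minus strand. Capitals mark the letters CCAAT on either strand.
Hsd3b3: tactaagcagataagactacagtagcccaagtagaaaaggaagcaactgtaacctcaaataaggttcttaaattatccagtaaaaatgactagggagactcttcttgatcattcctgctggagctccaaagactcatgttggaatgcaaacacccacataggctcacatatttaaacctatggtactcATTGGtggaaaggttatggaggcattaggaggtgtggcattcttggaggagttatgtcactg
Hsd3b6: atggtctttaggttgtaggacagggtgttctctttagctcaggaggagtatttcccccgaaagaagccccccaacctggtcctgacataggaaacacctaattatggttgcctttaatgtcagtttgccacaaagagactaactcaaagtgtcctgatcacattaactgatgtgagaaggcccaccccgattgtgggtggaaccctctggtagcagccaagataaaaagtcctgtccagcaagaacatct
The whole windows also include the 50 bases after the start. In these the letters occur 2 times in *Hsd3b3*, 1 of them in the stretch shown, and 0 times in *Hsd3b6*. They did not follow level in the cluster. They occur 0 times in *Hsd3b2* (663.7) and *Hsd3b5* (531.4). *Hsd3b1* and *Hsd3b4*, both listed at 0, hold them 1 time and, by window, 2 times or 1 time. The letters of a TATA box, a nuclear receptor half-site, an E-box and a STAT site were also searched, and occur 0 times in *Hsd3b3* and *Hsd3b6*. Of all 32851 promoter windows, 37.4% hold the marked letters at least 1 time. Whether any of these letters bear on level was not tested. The window of *Hsd3b5* lies at the RefSeq start, 15282 bases upstream of the GENCODE start, and its sequence is not shown.

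*Hsd11b1* (ENSMUSG00000016194.14, chr1:193221634-193264075, minus strand), the reductase that restores active corticosterone from its 11-keto form, had a mean normalized count of 16701, at percentile 98.2 and rank 235 of the genes within range. It held 27.8% of the counts of the 10 members. *H6pd*, which supplies its reduced cofactor in the endoplasmic reticulum, stood at 14653, and *Nr3c1*, the glucocorticoid receptor, at 2476. Per kilobase of longest transcript, *H6pd* was at 3088 against 8444 for *Hsd11b1*. *Hsd11b2*, which catalyzes the opposite reaction in kidney, had a mean normalized count of 0.505. None of the exons of *Hsd11b1* overlaps an exon of another annotated gene, since the overlap with its 3 neighbours was 0 bases.

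*Hsd17b13* (ENSMUSG00000034528.15, chr5:103955440-103977410, minus strand) had a mean normalized count of 15233, at percentile 98.0, and *Hsd17b11* (ENSMUSG00000029311.16, chr5:103989762-104021919, minus strand) had 8946, at percentile 96.6. The genes are 12.4 kilobases apart. *Hsd17b13* was higher on each scale, by 1.70-fold in counts and between 2.23-fold and 2.64-fold per kilobase, depending on the length used. Together these lipid droplet proteins accounted for 40.2% of the counts of the 10 members, and with *Hsd11b1* for 67.9%. Their genomic neighbours were lower, with *Klhl8* at 96.8 and *Nudt9* at 1072.

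*Hsd17b12* (ENSMUSG00000027195.10, chr2:94032689-94157964, minus strand), the ketoacyl reductase of fatty acid elongation, has the longest gene body of the members shown with coordinates, 125276 bases, and an 11-exon coding transcript. Its mean normalized count was 5742, at percentile 94.6. Other enzymes of the same elongation cycle ranged from 857.6 (*Elovl1*) to 9332 (*Hacd3*), with *Tecr* at 5069, and all 5 listed were within range. Per kilobase, *Hsd17b12* (3019) lay below *Tecr* (3985) and *Hacd3* (3445) and above *Elovl1* (473.6), *Hacd2* (328.7) and *Elovl6* (213.3).

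*Hsd17b7* (ENSMUSG00000026675.12, chr1:169949535-169969241, minus strand) reduces the 3-keto group after the methyl groups at carbon 4 are removed in cholesterol synthesis. Its mean normalized count was 2804, at percentile 88.5. The 4 listed genes of other steps of this synthesis, not all next to it, stood at 6612 (*Msmo1*), 5344 (*Ebp*), 1937 (*Nsdhl*) and 1895 (*Dhcr7*). *Hsd17b7* lay inside their range. Per kilobase of longest transcript it was the lowest of the 5, at 608.0 against 673.3 for *Dhcr7* and 893.3 for *Nsdhl*. With the median coding transcript, its own value was 925.7.

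*Hsd17b2* (ENSMUSG00000031844.8, chr8:117701904-117759027, plus strand), which oxidizes testosterone and estradiol, had a mean normalized count of 3664, at percentile 91.2. *Hsd17b6* (ENSMUSG00000025396.7) acts on androgen metabolites and retinol, and had 2699, at percentile 88.0. Their order was kept per kilobase, at 2776 and 1773. *Hsd17b1*, the estradiol-forming enzyme of the ovary, stood at 4.60 and *Hsd17b3*, the testosterone-forming enzyme of the testis, at 0.162, while *Akr1c6*, which also reduces 17-keto steroids, stood at 24018. In the same region of chromosome 10, *Rdh7* reached 32455 in counts, 12.0 times the level of *Hsd17b6*, *Rdh16* stood at 5280 and *Rdh9* at 2524. *Sdr9c7*, which lies between *Rdh7* and *Hsd17b6*, stood at 1315. Per kilobase of longest transcript, *Rdh7* (19341) lay above *Hsd17b6* (1773), and *Rdh16* (1607) and *Rdh9* (935.4) lay below it. *Rdh1*, with which *Hsd17b6* shares the window printed above, had a mean normalized count of 12.0.

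Of 16 further hydroxysteroid dehydrogenases listed for comparison, 14 were matched and 7 of these were within range. The highest in counts was *Hsd17b4*, a peroxisomal enzyme of fatty acid and bile acid oxidation, at 21754, above each of the 10 members. Per kilobase of longest transcript it stood at 8105, below *Hsd17b13* (8919) and *Hsd11b1* (8444). *Hsd3b7* followed in counts with 12831, although 76.7% of its windows also occur in other genes. Per kilobase, *Hsd3b7* (5613) lay below *Hsd17b10* (6625). *Hsd17b10* (6632), *Hsdl2* (5256), *Nsdhl* (1937), *Hsd17b8* (1581, listed under its older symbol *H2-Ke6*) and *Hsdl1* (342.2) made up the rest. Of the windows of *Hsd17b8*, 65.5% also occur in another gene, *Gm20427*. The 10 members accounted for 54.4% of the counts of all 24 genes.

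Of 22 partner genes of the steroid pathway, 21 were matched and 17 were within range, with a median of 1305. Reductases ranged from *Srd5a2* (34.5) and *Srd5a3* (346.3) to *Akr1d1* (8070) and *Akr1c6* (24018), and conjugating enzymes from *Sult1e1* (10.7) to *Ugt2b5* (22968) and *Sult2a8* (27179). *Por* stood at 25701 and encodes the electron donor of microsomal cytochromes P450. Among enzymes of hormone synthesis, *Cyp11a1*, the first step from cholesterol, stood at 0.335 and *Cyp11b2* at 0.150, and *Cyp11b1* and *Cyp19a1* were listed at 0. *Cyp17a1* stood higher, at 1121, and *Star* and *Cyp21a1* at 39.2 and 24.6. Steroid receptors within range included *Nr3c1*, *Esr1* (984.6) and *Nr3c2* (258.3). All 9 retinol and related dehydrogenases listed were within range, from 44.6 to 32455.

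The labelled tissue was checked against cell type markers. All 7 hepatocyte genes lay between 21204 and 2155546, the upper value being that of *Alb*. Genes of Kupffer cells (173.0 to 2374), sinusoidal endothelium (204.6 to 1273), stellate cells (134.9 to 4160), bile duct cells (25.8 to 268.2), pancreas (15.4 to 48.2) and adipocytes (4.75 to 7.87) were lower. Of 8 genes of adrenal and gonadal steroid cells, 3 were within range. All 4 red cell globin genes were listed at 0, although between 91 and 335 windows of each occur in no other gene, so a gene listed at 0 in this table is not taken to be unexpressed.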

How the data were processed

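RNA-seq libraries (single-end reads of 75 bases) came from the livers of 3 WT and 3 *Pai-1*+/− mice. The authors aligned reads to mm10 with STAR and used DESeq2 in BaseSpace, and the submitters' processing notes also name HOMER. Versions, annotation and the handling of strand and of reads fitting several genes are not given in the sources used here. The deposited signal used was the authors' mean normalized count per gene, averaged across libraries after scaling by size factor and not divided by length. The deposited table also holds the authors' genotype fold changes, their errors and p-values, which were not used. The 6 columns of counts per animal match no sample label and were not used, so depth per library and the spread between mice are not given and the planned test of genotype was not run.

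Genes above a mean normalized count of 10 were within range. Lengths, positions and sequences came from GENCODE M21 on GRCm38, which matched 12499 of the 12971 genes within range to 1 gene model by symbol, and promoters from RefSeq on GRCm38.p6, which held 9 of 10 members. Coding sequences and promoter windows were aligned globally (match 2, mismatch -1, gap opening -5, gap extension -1). Python 3.11.15, NumPy 2.4.6, pandas 2.3.3, Biopython 1.88 and Matplotlib 3.10.9 were used. The window count and the percentile were tested on simulated data, and the division by length on a known value. The transcript lengths themselves were not tested. The genes named are the 10 members and, where a sentence on a member turns on them, genes of listed families, pathways and cell types, with further genes that overlap or neighbour members. Members and lists were chosen with earlier results of these data known. Settings tried were transcript length, the filter on low levels and levels without length. A sequence window and a gene are not reported here.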

Additional observations from a re-analysis of the deposited data

How the results depend on the processing

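The median level of the 10 members was 2274 per kilobase of longest transcript, 2713 with the median protein coding transcript, 1809 with the union of exons, and 1890 with the 75-base windows found in no other gene, a setting chosen after seeing the data. The median percentile of the members was 90.5 among genes above 10 and 93.1 among genes above 0. The share of the highest member was 27.8% by count (*Hsd11b1*) and 29.0% per kilobase (*Hsd17b13*). Relative to the order per kilobase of longest transcript, 6 of 10 members kept their place with the median coding transcript, 8 with the union of exons, 8 with the windows and 3 with counts not divided by length. No paired analysis was possible because the columns of counts carry no sample label or replicate number. For the same reason the planned edgeR and DESeq2 fits, the filter on low counts and the fits leaving out a replicate were not run. Because those columns were not used, depth per library and the spread between mice are not given.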
